A study of Homo sapiens with 8 samples.

Results

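The proximal part of the long arm of chromosome 19 is described here in 2 intervals of the hg19 build, from 28600001 to 36600000 and from 38400001 to 44300000, which together span 13.9 Mb and are called the stretch below. A window belonged to the stretch when its start lay in either interval, so membership goes by position. The intervals themselves were picked because they hold a large share of all windows, and with earlier results of these data known. The stretch held 19206 of the 256141 windows of the deposited table (7.5%), which is as many as lay on the rest of chromosome 19. The interval between the 2 was left out by the same definition and held 1066 windows. No gene annotation of hg19 was used here, so the chromosome arm and the zinc finger gene clusters that the definition avoids could not be checked, and regions are named by position without gene names.

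FAIRE-seq was used to measure open chromatin in the AIRE-Tet line, a Tet-On Advanced HEK293 line (human embryonic kidney) in which doxycycline switches on human AIRE. The study crossed AIRE induction with etoposide in 4 groups of 2 libraries, each described as an independent biological replicate, and the comparisons ask whether either treatment goes with a change in chromatin openness. DoxEtop cells received 1.5 µM doxycycline and, after 24 h of AIRE induction, 2 µM etoposide for 24 h. Dox cells received 1.5 µM doxycycline, Etop cells 2 µM etoposide for 24 h, and Control cells neither drug. All groups grew in medium with tetracycline-negative serum and G418. DoxEtop and Dox are called induced below, and Etop and Control not induced. Doxycycline without the transgene was not analysed here, so the drug and AIRE itself cannot be told apart. Whether the line is a single clone is not given in the sources used here.

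FAIRE isolates DNA that stays in the aqueous phase when fixed chromatin is extracted with phenol and chloroform, and this DNA comes mostly from stretches with few nucleosomes, such as active promoters and enhancers. AIRE is a transcription regulator of medullary epithelial cells in the thymus, where it turns on many genes that otherwise belong to other tissues and so helps to remove self-reactive T cells. Etoposide traps topoisomerase II on cut DNA and leaves DNA breaks. Chromosome 19 is the most gene-dense human chromosome, and its long arm carries several clusters of KRAB zinc finger genes, whose proteins bind repeats and recruit silencing factors.

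Summed over all windows, the counts were 5305079 and 5034832 in DoxEtop replicates 1 and 2, 5169600 and 4489871 in the Dox pair, 7134106 and 4568818 in the Etop pair and 8275911 and 6787276 in the Control pair. These sums run over overlapping windows and are not library depths. At 3 or fewer counts stood 756, 301, 214 and 499 of the 19206 windows of the stretch in the 4 induced libraries (DoxEtop 1 and 2, Dox 1 and 2), against 109, 76, 4 and 4 in the not induced ones (Etop 1 and 2, Control 1 and 2). In the induced libraries these were 3.94%, 1.57%, 1.11% and 2.6%, against 2.01%, 0.789%, 0.682% and 1.71% of the whole table. In the not induced ones they were 0.568%, 0.396%, 0.0208% and 0.0208%, against 0.65%, 0.5%, 0.00703% and 0.0941%. DoxEtop replicate 1 had the most such windows and Control replicate 1 the largest total. The part of total count and of these sparse windows in the results below was not tested. A value for bulk cells cannot tell fewer cells with an open site from less opening in each cell.

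Signal in the stretch was gathered in many narrow regions and a few broad ones. Windows of 150 bp, placed every 50 bp, were joined across gaps of 100 bp or less into 2865 regions, 1409 in the proximal and 1456 in the distal interval. Their median width was 300 bp, against 350 bp over the 35741 regions of the table, and 526 regions (18.4%) were a single window, against 12.7% in the table. There were 250 regions wider than 1000 bp and 63 wider than 2000 bp, the widest from 30015501 to 30020900 (5400 bp). The median window had 3.29 CPM (counts scaled to a common, TMM-adjusted library total, mean of 8 libraries), against 3.42 CPM in the table, yet 756 windows (3.94%) lay above 10 CPM, against 0.631% of all windows. None of the 2865 regions crossed an edge of the stretch. The last window inside the proximal interval, at 36599351, had 3.32 CPM and a log2 fold change with AIRE induction of -1.08, and the next one outside, at 36600551, had 3.08 CPM and -0.42. The first window inside the distal interval, at 38416851, had 2.63 CPM and -2.28, and the last one before it, at 38398251, had 3.62 CPM and -0.33. At the outer edges the windows just inside were at 28709701 (2.6 CPM, -0.89) and 44289601 (5.62 CPM, -1.07) and those just outside at 28568701 (2.89 CPM, 0.6) and 44301701 (3.06 CPM, -0.39). The median gap between neighbouring regions was 1100 bp, and the longest runs without a window were 31939551 to 32532750 (593200 bp) and 43111251 to 43685700 (574450 bp).

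The 5 highest peaks of the stretch were not called as changed with AIRE induction. The strongest window, 36422401 to 36422550, had 158 and 157 counts in DoxEtop cells, 146 and 120 in Dox cells, 117 and 91 in Etop cells and 220 and 167 in Control cells, a mean of 28.7 ± 1.99 CPM in induced and 22.1 ± 4.49 CPM in not induced libraries (SD, n = 4 each). It ranked 46th of all windows in the table. Etop, one of the not induced groups, had the lowest libraries there, and Control overlapped with the induced ones. The log2 fold change was 0.39 (SE 0.175, edgeR adjusted p = 0.162). The next strongest regions had their top windows at 36505201, 44259101, 39109651 and 36485951, with log2 fold changes of 0.01, 0.17, -0.26 and 0.04 and edgeR adjusted p of 0.43 to 0.981, so none of the 5 was called. A window is called here when its edgeR p, adjusted over all 256141 windows, is at most 0.05. The strong window at 36545701, at 19.9 CPM, was called higher (log2 fold change 0.71, edgeR adjusted p = 0.00879). The 100 regions of the stretch with the strongest top windows all lay at 11.6 CPM or more. Of these windows, 7 were called lower and 4 higher, with a median log2 fold change of 0.06. Over all 2865 regions of the stretch, the strongest window was called lower in 10.9% and higher in 0.698%, and over the table in 7.58% and 1.24%. The 100 strongest regions of the table, at 13.9 CPM or more, had 8 lower, 6 higher and a median of 0.05. Regions of the stretch at these levels are in both lists, so the lists are not independent.

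Taken as a whole, the stretch gave a smaller share of the window counts in AIRE-induced libraries. It held 7.09% and 7.37% of the counts in DoxEtop, 7.75% and 7.69% in the Dox pair, 8.51% and 8.54% in the Etop pair and 7.83% and 9.2% in the Control pair. The 4 induced libraries averaged 7.48 ± 0.308% and the 4 not induced ones 8.52 ± 0.559% (SD, n = 4 each), a difference of -1.05 percentage points. The groups did not overlap (exact permutation test over 70 assignments, two-sided, p = 0.0286, which is the lower limit for 4 against 4 libraries; 0.0381 adjusted over 12 measures of the libraries). Control replicate 1, at 7.83%, stood next to Dox replicate 1, at 7.75%, so the gap between the arms was small at that point. The 2 Control replicates differed from each other by more than Control replicate 1 differed from either Dox library.

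The level of the median window was lower too. For each library the level of a window was taken as log2 CPM relative to its mean over the 8 libraries, and the median over the 19206 windows was -0.176 and -0.0884 in DoxEtop cells, -0.00623 and -0.0233 in Dox cells, 0.133 and 0.144 in Etop cells and 0.0309 and 0.267 in Control cells. Induced libraries averaged -0.0734 ± 0.0768 and not induced ones 0.144 ± 0.0966 (SD, n = 4 each), a difference of -0.217 on the log2 scale (two-sided exact permutation p = 0.0286, adjusted p = 0.0381). It was -0.196 in the proximal and -0.237 in the distal interval, each without overlap (exact permutation p = 0.0286, adjusted p = 0.0381), and the difference between the intervals did not pass (0.0415, exact permutation p = 0.343). DoxEtop differed from Etop by -0.271 and Dox from Control by -0.164, pairs of groups with 2 libraries each, for which no exact permutation test can go below p = 0.333.

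**Figure D1:**
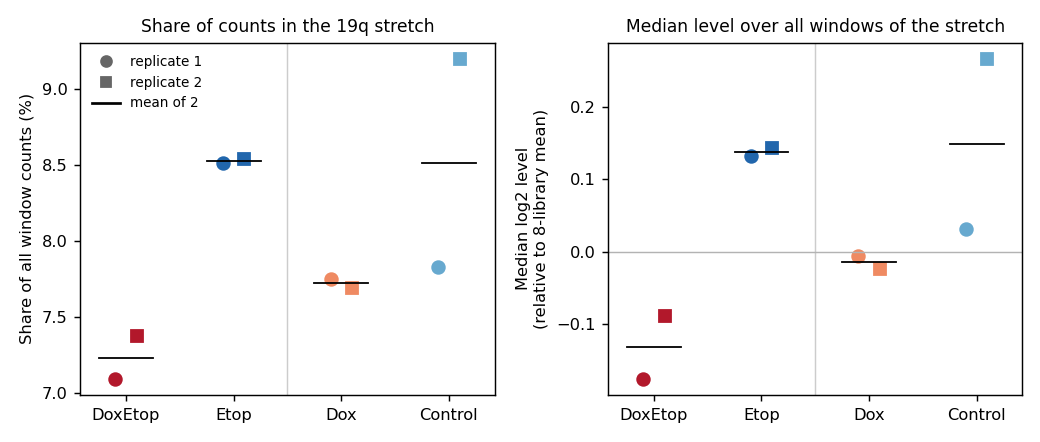
Share of all window counts that lie in the stretch (left, percent) and median log2 level over its 19206 windows relative to the 8-library mean (right), for each library (circle, replicate 1; square, replicate 2; bar, mean of 2), with DoxEtop beside Etop and Dox beside Control. All 4 induced libraries lie below all 4 not induced ones in both panels, and Control replicate 1 (7.83%, 0.0309) is the closest to the Dox libraries.

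On the rest of chromosome 19 a difference of the same sign was measured, and off chromosome 19 none that passed. The median level of all other chromosome 19 windows, the interval between the 2 parts included, differed by -0.065 between induced and not induced libraries (exact permutation p = 0.0286, adjusted p = 0.0381), and that of the windows off chromosome 19 by 0.0224 (exact permutation p = 0.143). The stretch minus the rest of chromosome 19 averaged -0.0698 in induced and 0.0823 in not induced libraries, a difference of -0.152 that did not pass (exact permutation p = 0.0857, adjusted p = 0.103). The stretch minus the windows off chromosome 19 differed by -0.239 without overlap (exact permutation p = 0.0286, adjusted p = 0.0381). The interval between the 2 parts of the stretch lay lower still: its median minus that of the stretch averaged -0.0648 in induced and 0.0554 in not induced libraries, a difference of -0.12, again without overlap (exact permutation p = 0.0286, adjusted p = 0.0381). The lower level was thus not limited to the stretch, and it was deeper in the interval left out by definition.

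Along the stretch, every bin of up to 1 Mb had a lower median level in induced than in not induced libraries, by -0.0997 to -0.397. In 9 of the 14 bins the libraries did not overlap (exact permutation p = 0.0286, adjusted p = 0.0444 over 14 bins): the first bin, from 28600001 to 29600000, and the 8 bins from 34600001 to the end. The 5 bins between 29600001 and 34600000 did not pass, with exact permutation p of 0.0857 to 0.229. The deepest difference was in the first bin, which held 180 windows, with medians of -0.401 and -0.182 in DoxEtop cells, -0.00962 and -0.0251 in Dox cells, 0.107 and 0.257 in Etop cells and 0.175 and 0.431 in Control cells. DoxEtop replicate 1 was the lowest and Control replicate 2 the highest library there. The most window-rich bin, from 35600001 to 36600000 with 3964 windows, differed by -0.244. With levels scaled to the column totals alone, all 14 bins were still lower with induction, by -0.0745 to -0.372, but 7 bins did not overlap and none passed (smallest adjusted p = 0.0571, exact permutation test).

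**Figure D2:**
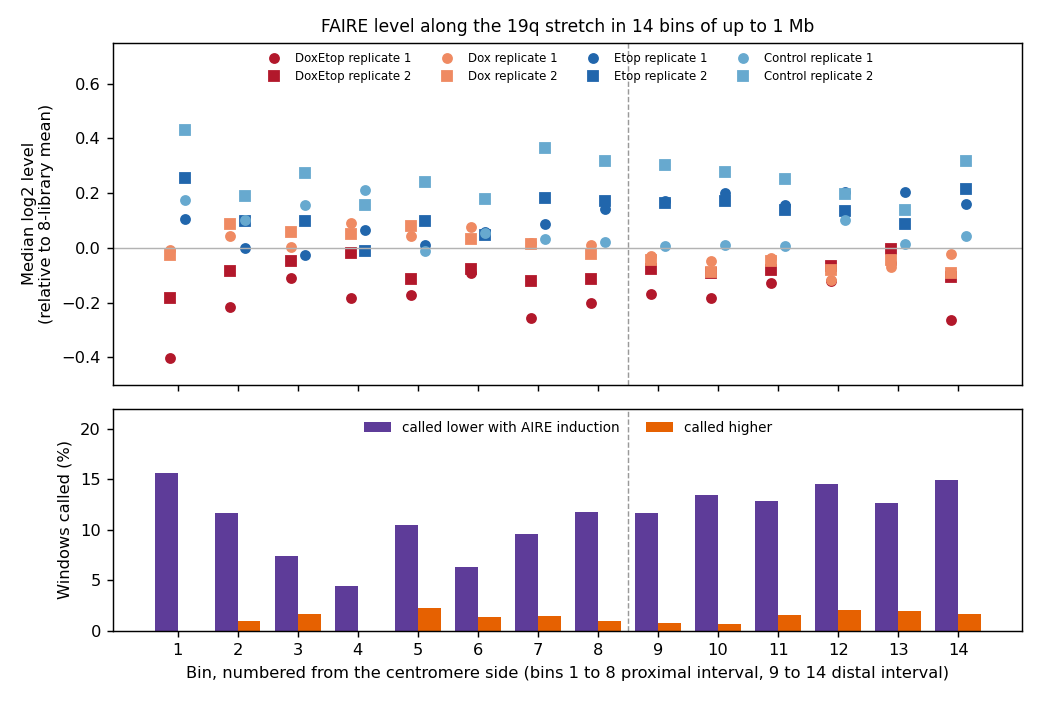
Median log2 level of each library in 14 bins of up to 1 Mb along the stretch, relative to the 8-library mean (top), and percentage of the windows of each bin called lower or higher with AIRE induction (bottom); the dashed line parts the proximal from the distal interval. DoxEtop libraries lie lowest in most bins, the not induced libraries clear the induced ones in the first bin and from bin 7 on, and losses outnumber gains in every bin.

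Window by window, losses of FAIRE signal were more frequent in the stretch than in the table, and gains were not. In the fit that also holds etoposide as a factor, 2214 windows of the stretch (11.5%) in 673 regions were lower with AIRE induction, against 6.17% of all windows tested, and 236 (1.23%) in 97 regions were higher, against 1.27% (edgeR quasi-likelihood test, adjusted over all windows). The comparison of gains differed by level. In the highest quartile of mean level 3.12% of windows were called higher, against 2.02% of table windows at the same levels. In the lower quartiles the share was 0.437% to 0.875%, against 0.747% to 1.32%. The median log2 fold change was -1.51 among the lower and 1.07 among the higher windows. Over all 19206 windows of the stretch it was -0.22, against 0.04 over the table, so that called windows stand on a lower general level. The share called lower was 10.1% in the proximal and 12.9% in the distal interval, 20.5% in the interval between and 8.54% on the rest of chromosome 19. Tested as whole regions by Simes' method, 572 of the 2865 regions (20.0%) were called with their strongest evidence at a loss, against 12.9% of all regions, and 21 (0.733%) at a gain, against 1.42%. Libraries did not overlap in 1549 of the windows called lower (8.07% of the stretch, 4.55% of the table) and in 166 of those called higher (0.864% and 0.973%). Calls in either direction came to 2450 (12.8% of the stretch), against 7.44% of all windows. That count was 996 without Control replicate 2, with 941 lower and 55 higher, against 6639 and 718 of all 256141 windows. Without DoxEtop replicate 1 it was 1229, with 1170 and 59, against 8188 and 803. With limma-voom it was 196, with 168 and 28, against 625 and 234. Losses outnumbered gains each time.

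Regions were lower in part more often than as a whole, in the stretch as in the table. Of the 673 regions with a lower window, 506 (75.2%) were lower in some of their windows, against 76.1% in the table, and 167 (24.8%) in every window, against 23.9%. Both directions were called in 43 regions (1.5%), against 0.61% of all regions. The strongest window of a region was itself lower in 311 regions (10.9%, against 7.58%) and higher in 20 (0.698%, against 1.24%). Regions with a lower window had a median width of 450 bp, as in the table, and those with a higher window 1350 bp, against 850 bp in the table, and wider regions have more windows to be called. Over the 250 regions wider than 1000 bp, 8.38% of windows within 200 bp of the strongest window were lower and 3.18% higher, against 13.8% and 2.57% at more than 200 and up to 500 bp, and 13.9% and 1.68% at more than 500 and up to 1000 bp. Beyond 1000 bp they were 11.8% and 2.18%, so losses were fewer and gains more frequent again. The shares over the table were 4.16% and 1.95%, 5.34% and 1.97%, 5.27% and 1.38%, and 6.26% and 1.38% at the same distances. The step in the losses past 200 bp was smaller there. The median level within 200 bp was 0.0315 ± 0.0245 in induced and 0.0134 ± 0.0454 in not induced libraries (SD, n = 4 each; exact permutation p = 0.514). At more than 500 and up to 1000 bp it was -0.0493 ± 0.0663 in induced and 0.113 ± 0.073 in not induced libraries, a difference of -0.163 without overlap that missed the threshold after adjustment over 4 distances (exact permutation p = 0.0286, adjusted p = 0.0571). Over the table the difference was 0.129 within 200 bp and 0.0434 at more than 500 and up to 1000 bp (exact permutation p = 0.0286 and 0.0857). Beyond 1000 bp it was -0.141 in the stretch (exact permutation p = 0.0571, adjusted p = 0.0762) and -0.0249 over the table (exact permutation p = 0.457).

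Region width and level ordered the median difference in the same way. In regions of up to 300 bp the level was -0.171 ± 0.135 in induced and 0.249 ± 0.196 in not induced libraries (SD, n = 4 each), a difference of -0.42 (exact permutation p = 0.0286). It was -0.323, -0.201 and -0.113 in regions of up to 500, 1000 and 2000 bp (exact permutation p = 0.0286 each), and -0.046 in wider ones (exact permutation p = 0.229). The table also had its lowest value in the narrowest regions, with differences of -0.235, -0.0839, 0.0528, 0.098 and 0.0381 in the same order of width. By quartile of mean level, from 2.45 CPM upward, the differences were -0.365, -0.306, -0.2 and -0.0366, of which the lower 2 separated the libraries (exact permutation p = 0.0286). Over the table they were -0.0817, -0.0509, 0.0147 and 0.0676 between the same levels. The share of windows called lower was near even, at 10.7% to 12.8%, whereas the share called higher was 0.437% in the lowest and 3.12% in the highest quartile. In the table the share called higher also rose with level, from 0.747% at the lowest to 2.02% at the highest levels. The share called lower was 5.38% to 6.66% there. It was smallest at the highest levels, where that of the stretch was largest. These p-values are not adjusted over the classes. No window of the stretch had under 112 counts over the 8 libraries, a sum to which both arms contribute. The column totals add up to 19999382 counts in the 4 induced and 26766111 in the 4 not induced libraries. Among the 14434 windows that met a raised minimum on the summed count both as they are and with the arms exchanged, 1464 (10.1%) were called lower and 154 (1.07%) higher with induction, against 5.27% and 0.994% of the 203668 such windows in the table.

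**Figure D3:**
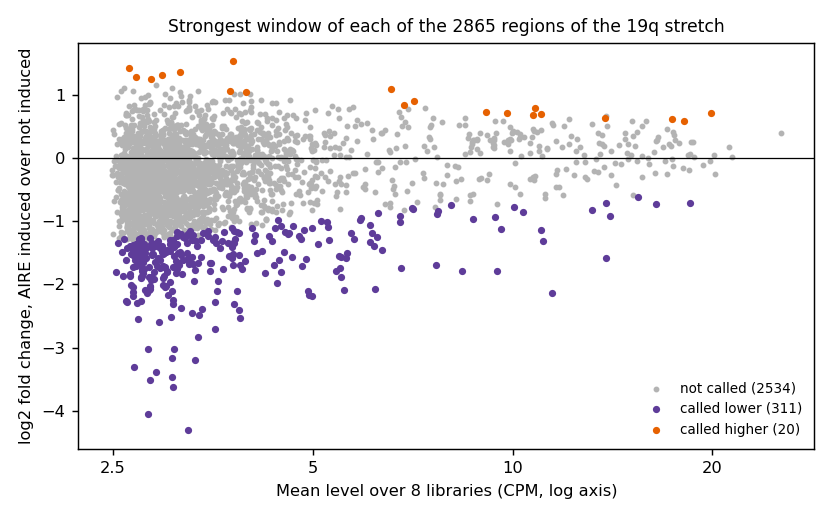
Log2 fold change with AIRE induction (vertical) against mean level over 8 libraries in CPM (horizontal, log axis) for the strongest window of each of the 2865 regions of the stretch. The 311 windows called lower reach the largest changes at low levels, and the 20 called higher stay below a log2 fold change of 2 across the whole range of levels.

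The deepest losses left windows of middling level almost without reads. They are given as the 10 regions whose called window fell most, among windows that lay above the median level of the stretch and whose libraries did not overlap, 5 in each interval, with log2 fold changes of -5.26 to -3.0. In the region from 36546701 to 36547450, the lowest window, at 36547201, had 0 and 1 counts in DoxEtop cells, 0 and 2 in Dox cells, 58 and 27 in Etop cells and 6 and 75 in Control cells. Control replicate 1, with 6, was far below the other not induced libraries. The mean was 0.16 ± 0.209 CPM in induced and 6.55 ± 4.45 CPM in not induced libraries (SD, n = 4 each), a pooled level 42.2-fold lower with induction (95% counting interval 14.2 to 206, which covers counting error only) and a log2 fold change of -5.26 (SE 0.676, edgeR adjusted p = 3.54e-07). With offsets fitted to each library along the mean log count, which is lowest at windows where some libraries are near 0, it was 0.03 (edgeR adjusted p = 0.99). All 10 windows are in the table through their not induced libraries. They had at most 13 counts in any induced library, and the smallest sum in the stretch was 112. Of the 10, only that at 36547201 did not meet the raised minimum with the arms exchanged. That setting rescales the sum of each arm and kept the other 9 through the same not induced libraries. They were called there, with log2 fold changes of -4.64 to -3.03, which is not separate support for these losses.

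In the region from 35738451 to 35741700, the second, at 35738501, had 0 and 1 counts in DoxEtop cells, 3 and 1 in Dox cells, 62 and 32 in Etop cells and 24 and 52 in Control cells. Every not induced library was well above every induced one. The mean was 0.248 ± 0.238 CPM in induced and 6.65 ± 2.62 CPM in not induced libraries (SD, n = 4 each), with a log2 fold change of -4.61 (SE 0.539, edgeR adjusted p = 4.35e-08) and -1.0 with the offsets along the mean log count (edgeR adjusted p = 0.389). The best supported of the 10 was that at 39340901, inside the region 39339751 to 39343550. It had 3 and 6 counts in DoxEtop cells, 4 and 13 in Dox cells, 81 and 52 in Etop cells and 59 and 105 in Control cells. Its mean was 1.34 ± 1.05 CPM in induced and 11.5 ± 3.52 CPM in not induced libraries (SD, n = 4 each), with a log2 fold change of -3.12 (SE 0.343, edgeR adjusted p = 1.15e-08) that was -3.17 with the offsets along the mean log count.

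The other 7 windows started at 44156501, 33467351, 35704701, 41870151, 38633051, 39810351 and 30153851. They had 0 to 9 counts in the induced and 14 to 81 in the not induced libraries, with log2 fold changes of -3.35 to -3.0 and edgeR adjusted p of 4.32e-07 to 6.94e-06. In the region from 44156401 to 44156800 all 6 windows were lower, and in that from 35704651 to 35704850 both were, whereas 4 of 21 were in the region from 39810351 to 39811500. With the offsets along the mean log count, 5 of the 10 windows were called lower. All 10 were called without any single library, and none with limma-voom (adjusted p = 0.186 to 0.432).

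A window at 3 or fewer counts in every library of an arm marks signal close to the limit of detection. This was so in all 4 induced libraries at 8 windows in 6 regions of the stretch (0.0417%, against 0.0265% of all windows) and in all 4 not induced libraries at 0 windows. Since no window of the stretch had under 112 counts in sum, the 8 windows were kept through their not induced libraries, so that their direction was fixed by being in the table.

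Gains were smaller and less uniform. By the same rule, the 10 regions with the highest change had log2 fold changes of 1.25 to 1.68, 6 of them in the proximal interval. The largest of the 10 was in the region from 36278151 to 36279000. A larger gain of 1.77, at 41196301, was not named by the rule, since a loss in its region had a smaller p. Its window at 36278301 had 43 and 17 counts in DoxEtop cells, 26 and 22 in Dox cells, 7 and 7 in Etop cells and 23 and 8 in Control cells. DoxEtop replicate 1 was the highest library, and Control replicate 1, whose total is the largest, had the most counts among the not induced ones. The mean was 5.3 ± 1.96 CPM in induced and 1.63 ± 0.793 CPM in not induced libraries (SD, n = 4 each), and the log2 fold change was 1.68 (SE 0.389, edgeR adjusted p = 0.00283). The window at 38713351 (region 38712851 to 38713600) had 30 and 32 counts in DoxEtop cells, 27 and 24 in Dox cells, 4 and 12 in Etop cells and 16 and 19 in Control cells, with a log2 fold change of 1.53 (SE 0.371, edgeR adjusted p = 0.00481). Its induced libraries were nearly level with each other.

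The smallest adjusted p among these 10 gains was at 40697301 (region 40696251 to 40698650), with 38 and 54 counts in DoxEtop cells, 44 and 67 in Dox cells, 21 and 19 in Etop cells and 48 and 28 in Control cells. Its mean was 10.2 ± 3.37 CPM in induced and 4.29 ± 1.14 CPM in not induced libraries (SD, n = 4 each), and the log2 fold change was 1.25 (SE 0.261, edgeR adjusted p = 0.000845). In the region, 13 of the 39 windows were higher. The other 7 windows started at 33555551, 41859301, 33685201, 44144301, 33769601, 34745901 and 36450651, with log2 fold changes of 1.25 to 1.44. Of the 10, 7 to 10 were called when any single library was left out, and 4 with limma-voom.

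**Figure D4:**
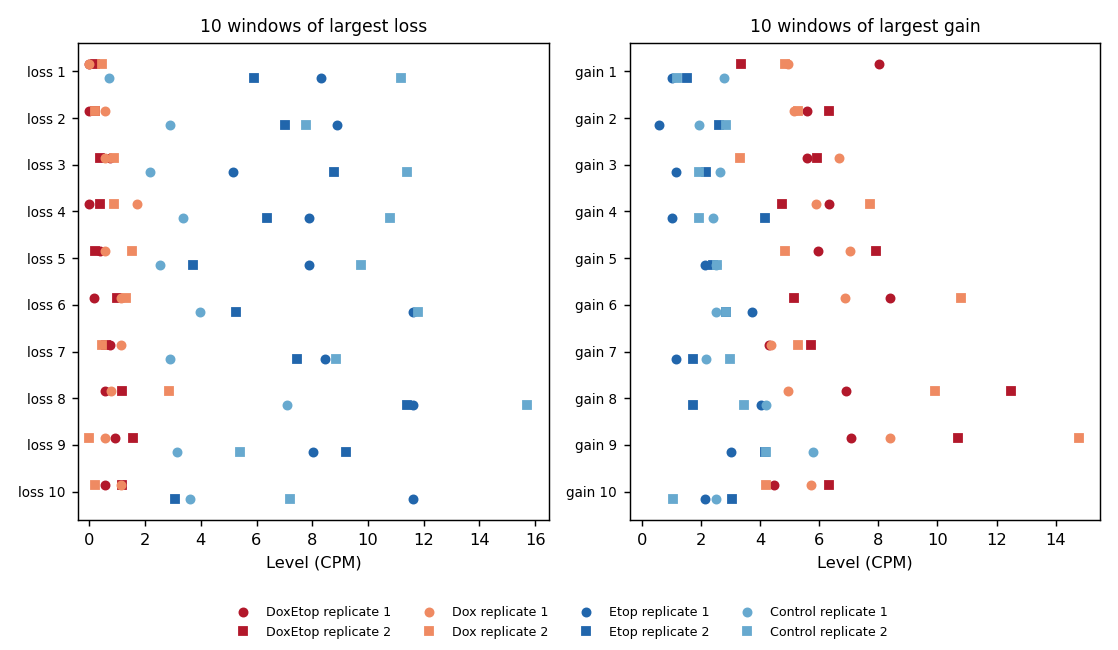
Level in CPM of each library at the 10 named windows of loss (left) and the 10 named windows of gain (right) with AIRE induction, 1 window per region, from the largest change at the top (loss 1 starts at 36547201, gain 1 at 36278301). Induced libraries crowd near 0 at the losses, where Control replicate 1 is often the lowest not induced library, and at the gains they spread from about 3 CPM upward with the not induced libraries still present.

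Losses and gains could lie close to each other. Of the 673 regions of the stretch with a lower window, 76 (11.3%) had a higher window within 2000 bp, against 6.1% of such regions in the table. Windows lie densely in the stretch, at 1382 per Mb, and a fixed distance meets more windows where they are dense. The part of density in these shares was not tested. In the 3800 bp region from 39339751 to 39343550, the strongest window, at 39340001, had 88 and 119 counts in DoxEtop cells, 115 and 67 in Dox cells, 145 and 79 in Etop cells and 123 and 85 in Control cells, with a log2 fold change of 0.24 (SE 0.192, edgeR adjusted p = 0.484). The groups overlapped there, while the deep loss at 39340901 described above lay 900 bp away and 16 of the 73 windows of the region were lower. In the 3250 bp region from 35738451 to 35741700, 10 of 60 windows were lower and 1 was higher, and the deepest loss lay 400 bp from a strongest window that was not called (log2 fold change 0.51, SE 0.204, edgeR adjusted p = 0.118).

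The neighbouring regions from 36544801 to 36546450 and from 36546701 to 36547450 showed both directions. In the first, the strongest window, at 36545701, had 22.2 and 29.7 CPM in DoxEtop cells, 23.1 and 24.0 in Dox cells, 17.8 and 14.7 in Etop cells and 15.5 and 12.4 in Control cells. All induced libraries were above all not induced ones there, and the log2 fold change was 0.71 (SE 0.183, edgeR adjusted p = 0.00879). The near-empty window at 36547201 lay 1500 bp from it. In the 3100 bp region from 41195351 to 41198450, 9 of 60 windows were higher and 3 lower. The highest change there, at 41196301, had 38 and 26 counts in DoxEtop cells, 23 and 26 in Dox cells, 5 and 11 in Etop cells and 11 and 15 in Control cells, with a log2 fold change of 1.77 (SE 0.38, edgeR adjusted p = 0.00124). The deepest loss, at 41195951, had 4 and 4 counts in DoxEtop cells, 9 and 3 in Dox cells, 42 and 16 in Etop cells and 18 and 42 in Control cells, a log2 fold change of -2.17. These 4 places were picked for display after their values were seen.

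**Figure D5:**
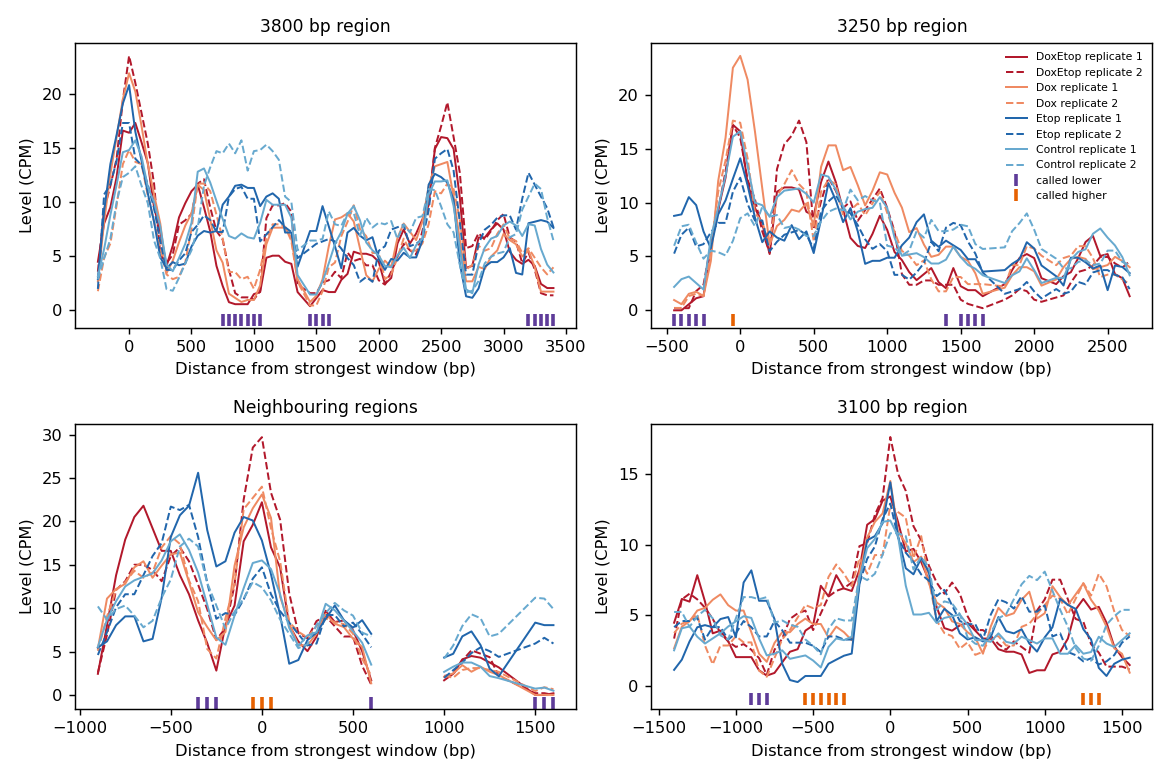
Level in CPM of each library along 4 places of the stretch, against distance in bp from their strongest window (the regions from 39339751, 35738451 and 41195351 and the neighbouring regions from 36544801 and 36546701); ticks mark windows called lower or higher with AIRE induction. The tallest peaks overlap between groups in 3 of the places, and the called losses lie on their flanks or on side peaks.

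AIRE induction was also compared without and with etoposide, in pairs of groups that share no library. Without etoposide, 330 windows of the stretch (1.72%, against 0.848% of all windows) were lower in Dox than in Control and 4 (0.0208%, against 0.0156%) were higher, by edgeR with adjustment over all windows. With etoposide, 1009 (5.25%, against 2.43%) were lower in DoxEtop than in Etop and 59 (0.307%, against 0.45%) were higher. Of the 330 windows lower without etoposide, 217 (65.8%), in 91 regions, were also among the 1009, of which they made up 21.5%. Over the table these shares were 57.6% and 20.1%. No window was higher in both. Log2 fold changes had the same sign in both settings at 70.5% of the windows of the stretch and 67.3% of all windows, and across the 19206 windows, which overlap and are not independent, Pearson's r was 0.594 and Spearman's rho 0.556, against 0.547 and 0.483 over the table. The test of the difference between the settings, the interaction, called 0 windows by edgeR and by DESeq2. At an unadjusted edgeR p under 0.05 stood 870 (4.53%), against 4.14% of all windows. Of these 870, 591 were lower (3.08%, against 2.03%) and 279 higher (1.45%, against 2.11%).

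The 4 windows higher in Dox than in Control all lay in the distal interval. The largest change, at 41019251 in the region from 41018201 to 41019500, had 29 and 18 counts in Dox and 11 and 6 in Control, with 30 and 31 in DoxEtop and 33 and 15 in Etop. The Dox libraries were above the Control libraries there, with a log2 fold change of 2.06 (SE 0.528, edgeR adjusted p = 0.0382), while the pair with etoposide overlapped in counts. The window at 44144301 was also sixth among the named gains over all 8 libraries, with a log2 fold change of 1.71 in Dox over Control (SE 0.417, edgeR adjusted p = 0.0274). In DoxEtop over Etop the highest change was at 35540201, with 24 and 32 counts in DoxEtop and 5 and 4 in Etop, against 17 and 14 in Dox and 26 and 37 in Control. Its log2 fold change was 2.75 (SE 0.602, edgeR adjusted p = 0.00569), and the interaction there was not called (log2 3.19, SE 0.789, edgeR adjusted p = 1.0). Without Control replicate 2, Dox replicate 1 or Dox replicate 2, 0 windows were called in Dox against Control, and 632 were called without Control replicate 1. In DoxEtop against Etop 15 were called when DoxEtop replicate 1 was left out, against 231 and 1783 when Etop replicate 1 or replicate 2 was.

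Cells given both drugs were lower than Control cells at 628 windows of the stretch (3.27%, against 1.48% of all windows) and higher at 25 (0.13%, against 0.154%). The lowest named window, at 36547251, had 0 and 1 counts in DoxEtop and 7 and 74 in Control, a log2 fold change of -5.64 (SE 1.04, edgeR adjusted p = 0.00248). The highest, at 41019251, had 30 and 31 counts in DoxEtop and 11 and 6 in Control, a log2 fold change of 2.36 (SE 0.517, edgeR adjusted p = 0.00936). This comparison shares its Control libraries with Dox against Control and its DoxEtop libraries with DoxEtop against Etop. It had 0 calls without Control replicate 2 or without DoxEtop replicate 1, and 1005 without Control replicate 1.

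Etoposide did not pass the test at any window of the stretch or of the table (0.0% called) by edgeR, as a main effect, in Etop against Control or in DoxEtop against Dox. At an unadjusted edgeR p under 0.05 stood 1155 windows of the stretch for the main effect (6.01%, against 5.83% of all windows). Of these, 743 were lower (3.87%, against 2.79%) and 412 higher (2.15%, against 3.04%). The count was 1031 in Etop against Control (5.37%, against 5.57%), with 554 lower (2.88%, against 2.9%) and 477 higher (2.48%, against 2.68%). In DoxEtop against Dox it was 973 (5.07%, against 4.26%), with 722 lower (3.76%, against 2.24%) and 251 higher (1.31%, against 2.02%). In the stretch, DESeq2 called 1 window lower for the main effect and 0 in either pair, and limma-voom called 0 in all 3. Over the table, DESeq2 called 2 windows lower and 1 higher for the main effect, and limma-voom called 8 higher in DoxEtop against Dox. Without Etop replicate 2, 22 windows of the stretch were called in Etop against Control (0.115%, against 0.0851%), 20 of them lower. The window with the smallest p, from 34175151 to 34175300, had 19 and 17 counts in DoxEtop and 5 and 7 in Etop, against 43 and 44 in Dox and 45 and 35 in Control. All 4 libraries with etoposide were below all 4 without it, in both AIRE states, with a log2 fold change of -1.74 (SE 0.328, edgeR adjusted p = 0.211, DESeq2 adjusted p = 0.0367). The next smallest, at 41221801, had 10 and 12 counts in DoxEtop and 96 and 29 in Etop, against 8 and 5 in Dox and 26 and 18 in Control, so that Etop replicate 1 alone stood far above the rest (log2 fold change 1.43, SE 0.362, edgeR adjusted p = 0.618).

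The share of counts in the stretch was 7.88 ± 0.756% with etoposide and 8.12 ± 0.724% without it (SD, n = 4 each; exact permutation p = 0.771), and the median level differed by -0.0638 (exact permutation p = 0.571). The proximal minus the distal interval was the 1 measure of 12 whose libraries did not overlap by etoposide, at -0.0427 ± 0.0335 with and 0.0474 ± 0.032 without the drug (SD, n = 4 each), a difference of -0.0901 on the log2 scale (exact permutation p = 0.0286, adjusted p = 0.343 over the 12). This difference did not pass after adjustment.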

How the data were processed

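FAIRE-seq counts were analysed for 8 libraries in 4 groups of 2. The deposited table holds raw counts made by the authors in windows of 150 bp placed every 50 bp, 1 column per library. Trim Galore, Bowtie2, Bowtie and the hg19 build are named, without versions or roles, per the submitters' processing notes. Each library was sequenced 2 times per the labels. The handling of fragments, of duplicates and of the choice of windows is not given in the sources used here, and input libraries were not analysed here. A fragment can be counted in several windows, so window counts are not independent, and levels are relative to the column total, so an equal change at all windows would not be seen.

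The window test was that of edgeR 4.0.16, run in R 4.3.3 (glmQLFit and glmQLFTest, two-sided, TMM on column totals, Benjamini-Hochberg adjustment at 0.05 over all 256141 windows, of which filterByExpr removed 0). Main effects came from a fit with AIRE induction and etoposide as 2 additive terms, which leaves 5 residual degrees of freedom. Pairs of groups and the interaction came from a fit of all 8 libraries with a separate mean for each group, which leaves 4. The biological coefficient of variation was 26.33% and 26.38%. The SE of a log2 fold change is its size divided by the root of the F statistic. Merged regions were tested by Simes' method. CPM uses TMM-scaled totals, log2 CPM a prior count of 2, and SDs are over 4 libraries. Replicates differed by more than sampling noise (chi-square per degree of freedom 1.85 to 3.12 over 1 window per region). P-values measure the spread between these libraries.

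The windows of the stretch, the bins and the named regions were chosen with earlier results of these data known. For each comparison 1 window per region is named, that with the smallest p among called windows. For AIRE induction these are the 10 lowest and 10 highest changes, and for a pair of groups up to 5 each way, above the stretch's median level and with libraries that do not overlap. Without calls, the windows with the smallest p are given as values, and the strongest and widest regions are described by level. Windows of the 4 places picked for display, also described, fall outside this rule. Classes by width, level and distance were formed after seeing the data. Alternatives were other scalings, a count minimum, DESeq2 1.42.0, limma-voom (limma 3.58.1), a replicate block, 1 window per region and leaving out each library. The offsets along the mean log count were added after seeing the data. The procedure was tested on simulated data, with 100 windows changed 2-fold and 100 changed 4-fold. For AIRE induction 8 and 75 of them were recovered, with 5 false calls. For Dox against Control 0 and 27 were, with 1 false call. Most 2-fold changes were thus missed, so a window without a call can still have changed. Simulated windows were drawn independently, unlike the overlapping windows of the data.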

Additional observations from a re-analysis of the deposited data

Results flagged for a closer look

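In the bin from 33600001 to 34600000, the median level of Control replicate 2 was 0.177 on the log2 scale, far from the other not induced libraries, which lay at 0.0575 and 0.0479 in Etop and 0.0558 in Control replicate 1. The 4 induced libraries had -0.0925 and -0.0787 in DoxEtop and 0.0769 and 0.0334 in Dox. This was the 1 case among 92 groups of 4 values examined whose gap to its neighbour exceeded Dixon's 95% limit, a limit that chance passes in about 1 of 20 groups.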

How the results depend on the processing

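AIRE induction kept more losses than gains in the stretch under every alternative run, from 196 calls with limma-voom to 3138 without Control replicate 1. The 2450 calls became 637 of 3352 windows with a mean of at least 30 counts, 542 lower and 95 higher. Over the table these were 3051 and 599 of 38481. With 1 window per region there were 313 of 2865, 284 lower and 29 higher, against 2459 and 576 of 35741 in the table. Among windows that met a raised minimum on the summed count as they are and with the arms exchanged, there were 1618 of 14434 (11.2%, against 6.27%). These settings test fewer windows. Leaving out 1 library gave 996 to 3138 calls. Over the 256141 windows of the table, 6639 were lower and 718 higher at the low end, and 19191 and 4531 at the high end. Dox against Control had 334 calls, and 173 with at least 30 counts, 41 with 1 window per region, 164 with offsets along the mean log count, 25 with DESeq2, 1 with limma-voom and 0 to 632 without 1 library. DoxEtop against Etop had 1068, and 324, 132, 674, 371, 10 and 15 to 1783 under the same settings in that order. DoxEtop against Control had 653, and 271, 61, 387, 132, 18 and 0 to 1005. Etop against Control had 0 calls, and 0 to 22 without 1 library, and the etoposide main effect 0, with 1 by DESeq2. Where fewer windows or libraries do not account for a shift, the cause was not tested. With the offsets along the mean log count, 25 of the 49 named windows with a call kept it and 2 changed sign, both at 36547201 (0.03 for AIRE induction and 0.86 for Dox against Control). The other scalings changed the call of none of the 49.

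The difference in median level, -0.217, was -0.252 to -0.173 without 1 library, each at exact permutation p = 0.0571, the smallest possible with 4 against 3. The difference in share, -1.05, was -1.27 to -0.818 at the same p. In 9 bins the difference passed, in 0 with column totals (9 became 7 without overlap) and in 0 without any 1 library, where no bin can pass. Same-numbered libraries correlated at -0.0703 to 0.139 in their deviations, which cannot settle whether replicate numbers pair the libraries. With a replicate block the differences were -0.217 and -1.05 (exact permutation p = 0.0556, the smallest possible), AIRE induction had 2369 calls, Dox against Control 232, DoxEtop against Etop 1003 and DoxEtop against Control 517.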
